A study of Homo sapiens with 24 samples.

Results

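The JAK-STAT genes described here were STAT2, STAT3, STAT4, STAT5A, STAT6, JAK2, SOCS1, SOCS3 and CISH, which are 9 of the 30142 genes named on the array. They were chosen by name, and every oligonucleotide that the scanner files assign to one of these names was taken, 17 of 41000 in all. FOXP1 is a forkhead transcription factor that diffuse large B-cell lymphoma (DLBCL) commonly expresses. It was depleted from 4 cell lines by nucleofection of siFOXP1 #1 or siFOXP1 #2, and after 48 h the RNA was compared on 2-colour arrays with that of the same line given a non-targeting siRNA (siCtrl). DB and K422 are lines of the germinal centre B-cell-like subtype (GCB-DLBCL), and HBL-1 and OCI-Ly3 are lines of the activated B-cell-like subtype (ABC-DLBCL). With 3 replicates for each siRNA in each line, 24 arrays were read. All cells had been nucleofected, and each subtype was represented by 2 established lines, so what 1 line does cannot be told apart from what its subtype does.

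Cytokine receptors carry Janus kinases such as JAK2 on their inner side. A bound receptor lets the kinase phosphorylate STAT proteins, which pair through their SH2 domains, enter the nucleus and bind genes. CISH, SOCS1 and SOCS3 are transcribed in answer to STATs and block the receptor or the kinase, so their transcripts are often read as a record of recent cytokine signalling. STAT3 driven by autocrine interleukin-6 and interleukin-10 is a known feature of ABC-DLBCL, and SOCS1 is often mutated in B-cell lymphomas.

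A short run of the oligonucleotides of JAK2, SOCS1 and SOCS3, genes that passed the test on silencing, is given because the result of SOCS3 depended on which of its oligonucleotides was read. The first 30 of 60 bases are printed as the scanner files list them, with the hg18 position of all 60 bases, all on the reverse strand except that of JAK2. No gene model of that build was used here, so exon and UTR annotation is not given.
JAK2, chr9:5116773-5116832: ggataacatggctggatgaaagaaatgacc
SOCS1, brighter, chr16:11255885-11255944: acctgaactcgcacctcctacctcttcatg
SOCS1, dimmer, chr16:11256444-11256503: tttttcgcccttagcgtgaagatggcctcg
SOCS3, brighter, chr17:73864722-73864781: gcaactaaacaaacacaaagtattctgtgt
SOCS3, dimmer, chr17:73866154-73866213: gccactcttcagcatctctgtcggaagacc
The brightest oligonucleotide over all arrays stood for a gene, and the others are described beside it.

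The 250 bases before each RefSeq start site (GRCh38.p14) were searched for 4 motifs on both strands. These were the STAT palindrome TTCNNNGAA, its STAT6-spaced form with 4 bases between TTC and GAA, the interferon-response form with 2 bases between GAAA and GAAA, and the forkhead core TGTTTA. All 9 genes had an entry, with 16 windows, and 3 of those windows held a match. The window of CISH held 4 copies of TTCNNNGAA, at 241, 230, 129 and 112 bases before the start. Of 35116 such windows of all genes, 6.57% held at least 1 copy and 5 windows (0.0142%) held at least 4. SOCS1 had 1 interferon-response form at 113 bases, a motif found in 3.02% of windows, and STAT5A had 1 STAT6-spaced form at 229 bases, found in 5.38%. None of the 16 windows held TGTTTA, which was in 11.0% of all windows. Of the 3 windows with a match, those of the inhibitors CISH and SOCS1 are printed with the matches in capitals, and that of STAT5A is not. The 2 windows of SOCS3, also an inhibitor, held no match.
CISH, reverse strand of chr3:50611775-50612024: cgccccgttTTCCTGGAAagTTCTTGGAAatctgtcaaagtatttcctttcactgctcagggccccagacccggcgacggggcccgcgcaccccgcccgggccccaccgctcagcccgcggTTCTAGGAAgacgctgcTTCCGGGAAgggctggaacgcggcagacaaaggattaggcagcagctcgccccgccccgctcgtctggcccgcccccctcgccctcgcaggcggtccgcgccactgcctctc
SOCS1, reverse strand of chr16:11256205-11256454: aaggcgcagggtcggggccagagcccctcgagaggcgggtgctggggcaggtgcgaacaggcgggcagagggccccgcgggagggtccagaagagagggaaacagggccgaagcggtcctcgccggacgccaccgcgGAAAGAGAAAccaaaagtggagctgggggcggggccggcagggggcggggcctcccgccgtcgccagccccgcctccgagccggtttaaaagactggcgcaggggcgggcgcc
These are matches of letters in the reference, and binding was not measured.

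The silenced cells were always labelled with Cy3 and the controls with Cy5, so a dye bias of an oligonucleotide cannot be told apart from silencing within a line. The FOXP1 transcript was lower on 6 of 6 arrays in each line, with mean log2 ratios between -2.00 in DB and -1.34 in K422, and siFOXP1 #2 reduced it further than #1 in all 4 lines. All 6 B-cell markers were well above background in every line, while on all arrays of a line at most 1 of 5 NK-cell, 2 of 6 myeloid and 3 of 6 stromal and epithelial markers were. Of 6 T-cell markers, 3 were above background on all arrays of K422 and at most 1 in another line. The arrays of DB and OCI-Ly3 were read with 1 software version and those of K422 and HBL-1 with another. The word scan below means lines that share a software version, and not a shared scanning day or run. A pair of arrays stood apart: siFOXP1 #1 replicate 3 of DB had a median correlation of 0.0456 with the other DB arrays, and siFOXP1 #1 replicate 1 of K422 was extreme for 3 of the 9 genes. Between 54.2% and 61.5% of oligonucleotides were well above background in the control channel of an array.

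The control channel gave the level of each gene before any change in FOXP1. STAT3 and SOCS3 were highest in OCI-Ly3 and next highest in HBL-1, SOCS1 was high in K422 and OCI-Ly3 but low in DB, and CISH was highest in K422. Levels are log2 Cy5 signal after quantile scaling of the arrays, as means of the 2 arrays of a replicate number (n = 3 a line). A difference was called at a limma adjusted p under 0.05 and at least 0.5 on the log2 scale (1.41-fold), and 37 of the 54 comparisons of 9 genes over 6 pairs of lines were called. Differences between lines were common on the array, with 42.5% of all genes called for K422 against DB, 45.8% for HBL-1 against DB, 40% for OCI-Ly3 against DB, 39.4% for HBL-1 against K422, 44.5% for OCI-Ly3 against K422 and 39.2% for HBL-1 against OCI-Ly3. The 9 genes had 6, 4, 8, 7, 6 and 6 calls in the same order, which is 37 of 54 beside shares of all genes near 40%. The calls within a scan were the 8 for OCI-Ly3 against DB and the 7 for HBL-1 against K422. All comparisons of a line share its control samples.

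STAT3 transmits signals of the interleukin-6 and interleukin-10 receptors. Its level was 8.02, 7.75 and 7.96 in DB, 6.56, 6.40 and 6.21 in K422, 9.64, 9.95 and 9.76 in HBL-1, and 12.69, 12.69 and 12.70 in OCI-Ly3. No 2 lines overlapped, and all 6 pairs were called. HBL-1 stood 3.40 ± 0.12 (SE) above K422 in the same scan (limma adjusted p = 3.16e-09), and OCI-Ly3 stood 4.78 ± 0.12 above DB (1.89e-10). On the slides that held a line of each subtype the differences were 3.43 and 4.73. An oligonucleotide of STAT3 elsewhere in the transcript, at chr17:37719449-37719508, gave the same order of lines, with means from 5.37 in K422 and 5.87 in DB to 7.67 for HBL-1 and 9.94 for OCI-Ly3. The remaining oligonucleotide of STAT3 at chr17:37727930-37727989 overlaps the brightest one, and 1 that carries a cDNA clone's name was well above background in the control channel of 6 arrays in all.

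SOCS3, which blocks JAK kinases at the interleukin-6 receptor chain, had the widest range of levels among the 4 lines. Its control signal cleared background on 0 of 6 arrays of K422 and 2 of 6 of DB, against 6 of 6 in both ABC lines. The levels were 9.66, 10.03 and 9.58 in HBL-1 and 13.83, 13.21 and 13.49 in OCI-Ly3. The GCB values of 2.01, 3.53 and 3.60 in DB and 2.05, 1.87 and 1.98 in K422 lie near the floor of the scanner. SOCS3 was therefore at least 57.1-fold higher in HBL-1 than in K422 and at least 770-fold higher in OCI-Ly3 than in K422. The bound sets K422 at the lowest signal that counted as above background, and was not itself tested. The limma test was on the measured log2 differences of 7.79 (adjusted p = 2.23e-08) and 11.5 (7.80e-10), which use the K422 values near the floor. No fold is given against DB, where 2 of 6 arrays measured SOCS3. The call for K422 below DB (-1.08, adjusted p = 0.0299) is between 2 lines at or near background. The dimmer oligonucleotide was well above background on 0 of 6 arrays in DB and in K422 and on 6 of 6 in both ABC lines, where its mean was 5.08 for HBL-1 and 8.92 for OCI-Ly3.

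SOCS1 is the inhibitor of JAK kinases induced by interferons and interleukin-4. Its level was 12.08, 11.21 and 11.23 in K422 and 11.90, 11.53 and 11.65 in OCI-Ly3, and these lines overlapped (difference 0.19, 95% interval up to 1.24). It was 6.66, 6.76 and 6.82 in HBL-1, a difference from K422 of -4.76 ± 0.47 (SE). In DB it was 5.57, 3.24 and 4.81, and was well above background on 3 of 6 arrays. The order of SOCS1 thus did not follow subtype, with 1 line of each at the high level and 1 of each below it. The dimmer oligonucleotide was well above background on 0 of 6 arrays of DB and 4 of 6 of HBL-1, so it gives no difference between these lines.

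CISH, the first of the SOCS family to be described and a target of STAT5, had levels of 7.68, 9.02 and 9.64 in K422, 6.56, 6.49 and 6.76 in OCI-Ly3, and 5.52, 3.38 and 4.02 in HBL-1. It was not well above background on any array of DB, and was on 3 of 6 in HBL-1. K422 was at least 16.0-fold above DB and OCI-Ly3 at least 3.55-fold, bounds that were not tested. The limma test was on the measured log2 differences of 5.76 (adjusted p = 8.47e-06) and 3.59 (0.000305), which use the DB values at background. K422 exceeded OCI-Ly3 by 2.17 ± 0.56 (SE). The dimmer oligonucleotide turned that difference round, with OCI-Ly3 above K422 by 1.02 (adjusted p = 0.00814), and it was not well above background on any array of K422, so the place of K422 at the top rests on the brighter one.

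STAT6, the factor of interleukin-4 and interleukin-13, was 12.98, 13.06 and 12.99 in DB, 13.77, 13.47 and 13.58 in K422, 12.56, 12.69 and 12.57 in HBL-1 and 14.45, 14.67 and 14.64 in OCI-Ly3. These 4 groups did not overlap. The smallest gap, between HBL-1 and DB, was -0.40 (adjusted p = 0.00882), below the limit of 0.5, and the other 5 pairs were called. JAK2 was 8.02, 7.99 and 8.18 in OCI-Ly3, above all 3 other lines by between 1.12 and 1.39. The other lines averaged 6.67 (DB), 6.94 (K422) and 6.69 (HBL-1), and none of the 3 pairs among them was called.

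STAT5A, which acts downstream of interleukin-2 family receptors, was highest in DB at 10.00, 10.26 and 10.44 and was 1.43 ± 0.20 (SE) lower in HBL-1 and 1.27 ± 0.20 lower in OCI-Ly3. STAT5B is nearly identical in sequence and the oligonucleotides may read some of it. STAT2, an interferon factor that binds DNA with IRF9, averaged 7.48 in DB and 7.99 in K422, against 6.98 (HBL-1) and 6.59 (OCI-Ly3), with values of 8.70, 7.43 and 7.84 in K422. K422 exceeded HBL-1 by 1.00 ± 0.28 and OCI-Ly3 by 1.40 ± 0.28, and K422 and DB did not pass the test. STAT4, a factor best known from T and NK cells, was well above background in the control channel of 1 array, in HBL-1, and its second oligonucleotide on none, so no order of lines can be given.

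**Figure D1:**
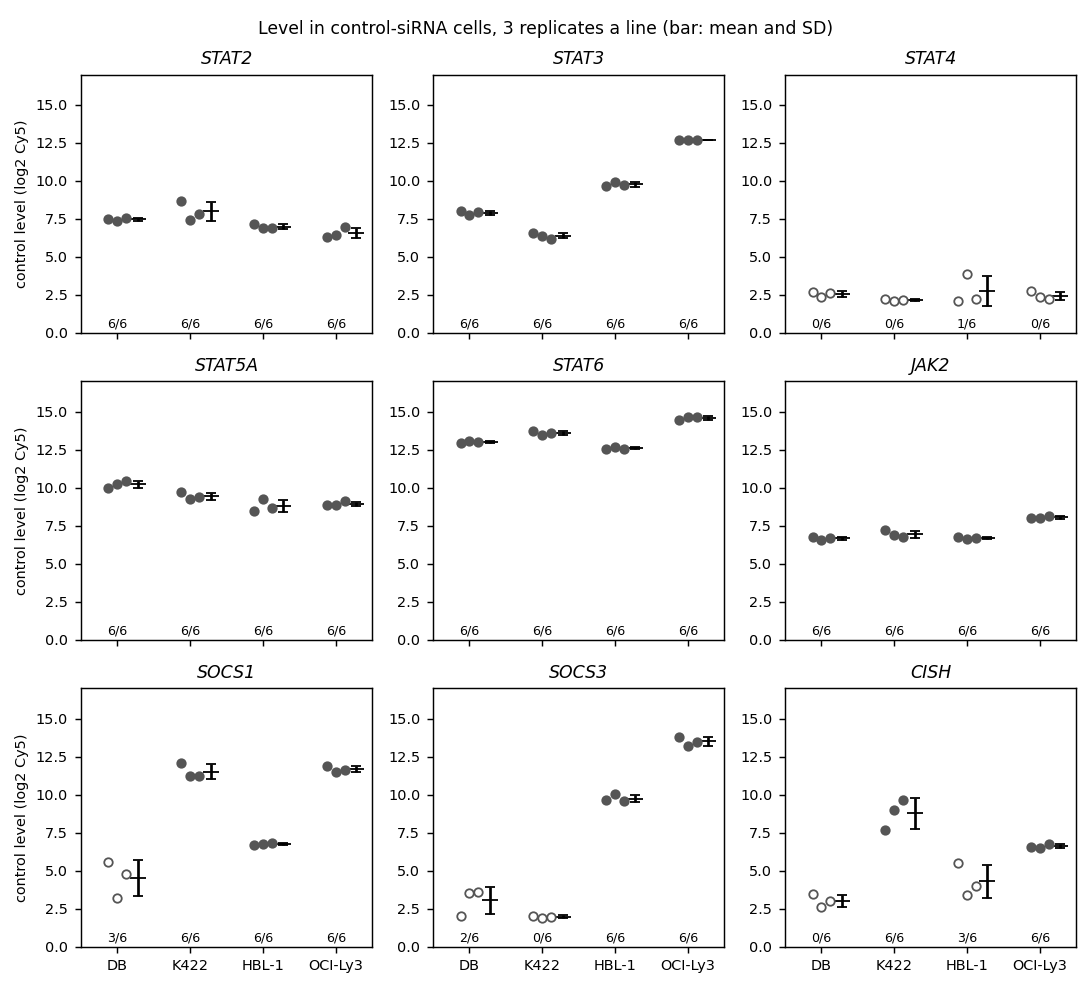
Log2 Cy5 level of each gene in control-siRNA cells (y axis) in the 4 lines (x axis), with 3 points a line, each the mean of 2 arrays, and a bar for the mean and SD. The fraction under each line is the number of its 6 arrays on which the gene was well above background, and open points mark lines with fewer than 6. STAT3 and SOCS3 were higher in both ABC lines than in both GCB lines.

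FOXP1 silencing changed 4 of the 9 genes in HBL-1 and 1 in K422, and none passed in DB or OCI-Ly3. STAT2, JAK2 and SOCS1 rose in HBL-1, SOCS3 fell in HBL-1, and SOCS1 rose in K422. Values are log2(siFOXP1/siCtrl), and a line's estimate is the mean over both siRNAs. In HBL-1, 5.73% of all genes were called higher and 4.17% lower, against 3 and 1 of the 9. In K422 the shares of all genes were 2.34% higher and 2.09% lower, against 1 and 0. In DB, 1.33% of all genes were called higher and 0.829% lower, and in OCI-Ly3 2.8% and 1.62%, against 0 of 9. At an adjusted p under 0.05 with no limit on size, 5 of the 9 genes passed in K422 (19.4% of all genes), 5 in HBL-1 (31.1%), 3 in OCI-Ly3 (18.8%) and 0 in DB (12.1%), where 1 had an unadjusted p under 0.05. The median change of the 9 genes was 0.27 in HBL-1 and between -0.03 and 0.07 in the other lines, beside a median of 0 over all genes in each.

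With the normexp background correction the rises of STAT2, JAK2 and SOCS1 in HBL-1 fell below the limit of 0.5, to 0.41, 0.29 and 0.46 after loess and to 0.30, 0.21 and 0.38 after median centring, with adjusted p-values still under 0.05. SOCS3 in HBL-1 remained past it, at -0.99 and -1.17. The changes under the limit that had passed the adjusted p alone were less stable. After median centring none of them passed it (lowest limma adjusted p = 0.0882, STAT6 in K422), and STAT6 in HBL-1 was -0.05. After loess STAT2 and STAT3 in K422 (0.0919 and 0.153) and STAT2 in OCI-Ly3 (0.113) did not pass, and the others did.

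STAT2 in HBL-1 was 0.79, 0.58 and 0.58 with siFOXP1 #1 and 0.83, 0.78 and 0.97 with #2. All 6 arrays were above 0, and the estimate of 0.75 ± 0.09 (SE), a 1.69-fold rise, had a limma adjusted p of 2.73e-06. In OCI-Ly3 STAT2 was 0.50, 0.55 and 0.31 with #1 and 0.43, 0.69 and -0.05 with #2. Its mean there was 0.40 ± 0.26 (SD, n = 6), with an adjusted p of 0.00269 but below the limit of 0.5. Without replicate 3 of OCI-Ly3 the estimate was 0.54, which passed. In K422 the 6 arrays ran from 0.04 through a median of 0.16 to 0.95, and the estimate of 0.28 became 0.16 (adjusted p = 0.165) without the array at 0.95. In DB the mean was 0.04.

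JAK2 in HBL-1 was 0.45, 0.72 and 0.34 with #1 and 0.78, 0.94 and 0.68 with #2. The estimate was 0.65 ± 0.05 (SE), 1.57-fold, with an adjusted p of 2.08e-08, the smallest among rises of the 9 genes. In K422 all 6 arrays were also above 0, from 0.11 to 0.32 with a median of 0.21, and the estimate of 0.22 had an adjusted p of 0.00255 but was under the limit. DB and OCI-Ly3 had means of -0.03 and 0.06. In DB the 3 arrays with #1 lay between -0.29 and -0.09 and the 3 with #2 between 0.02 and 0.16, and the difference between the siRNAs did not pass (adjusted p = 0.277).

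SOCS1 in HBL-1 was 1.47, 0.54 and 1.01 with #1 and 0.64, 0.43 and 0.38 with #2, an estimate of 0.74 ± 0.16 (SE) with an adjusted p of 0.00171. In K422 it was 0.73, 0.62 and 0.61 with #1 and 0.15, 0.40 and 0.54 with #2, an estimate of 0.51 ± 0.16 with an adjusted p of 0.0364. All 12 of these arrays were above 0. The call in K422 was lost with the replicate number as a block (limma adjusted p = 0.0639), with slides as a block (0.130), without any 1 replicate of K422 (0.104 to 0.175), and without replicate 3 of HBL-1 or replicate 2 or 3 of OCI-Ly3 (0.0518 to 0.0552). The dimmer oligonucleotide of SOCS1 averaged 0.61 ± 0.18 (SD, n = 6) in K422 and 0.66 ± 0.30 in HBL-1. In OCI-Ly3 the arrays ran from -0.38 to 0.58, and in DB from -0.40 to 1.31, where SOCS1 was above background on 3 of 6 control channels. Without replicate 1 of DB the estimate for DB was 0.69 (adjusted p = 0.0047), which passed. By the brighter oligonucleotide siFOXP1 #1 gave a higher mean than #2 in each line, at 0.73 and -0.02 in DB, at 0.65 and 0.37 in K422, at 1.01 and 0.48 in HBL-1, and at 0.46 and -0.10 for OCI-Ly3, but no difference passed the test (lowest adjusted p = 0.436). The dimmer one, above background on 0 of 6 control channels in DB, gave -0.07 with #1 and 0.40 with #2 there.

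SOCS3 in HBL-1 fell on 6 of 6 arrays, by unequal amounts with the 2 siRNAs. It was -0.25, -0.43 and -0.90 with #1 and -1.88, -2.63 and -2.32 with #2, so that the groups did not overlap. The line's estimate was -1.40 ± 0.11 (SE, pooled over the lines), with a limma adjusted p of 6.14e-08. That pool takes in ratios set to 0 at background, on 6 of 6 arrays of K422 and 4 of 6 of DB. The SE and p-values of SOCS3, also those between siRNAs and in OCI-Ly3, thus do not measure the spread in 1 line. The siRNAs differed by -1.75 ± 0.22 (adjusted p = 0.00185), where 0.173% of all genes were called in HBL-1, and FOXP1 itself was lower with #2 by 0.90 on the log2 scale there. The dimmer SOCS3 oligonucleotide gave -0.22 with #1 and -0.96 with #2, and by it the siRNA difference of -0.74 did not pass (adjusted p = 0.922).

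In OCI-Ly3, the line with the highest level of SOCS3, the arrays were -0.00, 0.39 and 0.15 with #1 and -0.92, -0.40 and -0.37 with #2. The fall with #2 alone averaged -0.56 (limma adjusted p = 0.0376), which was lost without any 1 replicate of OCI-Ly3 or of K422 (0.0554 to 0.324), and the line's estimate of -0.19 did not pass. The dimmer oligonucleotide gave 0.37 ± 0.26 (SD, n = 6) in OCI-Ly3 and 0.15 with #2, so the 2 oligonucleotides disagreed in direction in this line. In K422 both channels of the brighter one were at background on all 6 arrays, and the software set the ratio to 0. In DB 4 of 6 ratios were 0 for the same reason, so a change in the GCB lines could not be measured.

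**Figure D2:**
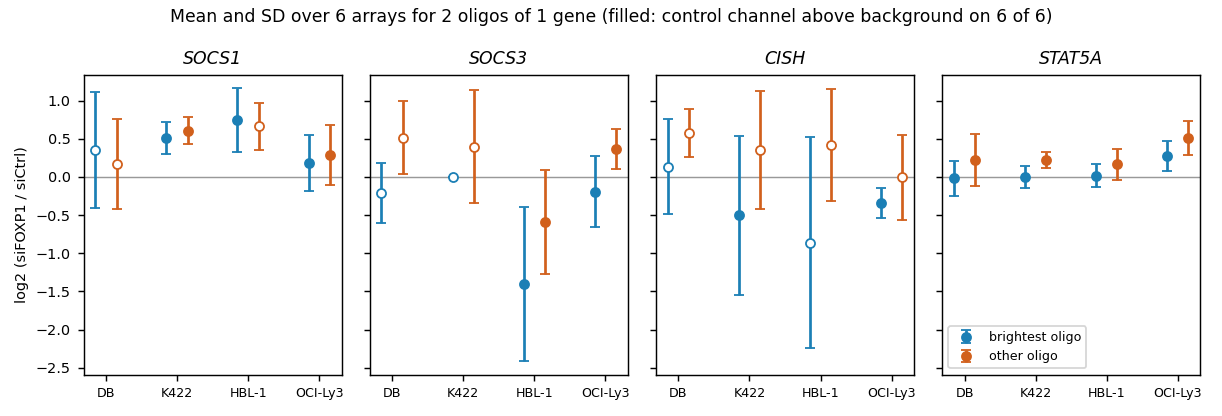
Mean log2(siFOXP1/siCtrl) with SD over 6 arrays (y axis) in the 4 lines (x axis) for the brightest and another oligonucleotide of SOCS1, SOCS3, CISH and STAT5A. Filled points had a control channel above background on 6 of 6 arrays. The 2 oligonucleotides of SOCS1 gave 0.51 and 0.61 in K422, while those of SOCS3 gave -0.19 and 0.37 in OCI-Ly3.

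CISH did not pass in any line. In OCI-Ly3 it was below 0 on 6 of 6 arrays, from -0.69 through a median of -0.28 to -0.18. The estimate there was -0.34 ± 0.39 (SE, pooled over the lines) with a limma adjusted p of 0.645. In HBL-1 the arrays ran from -3.42 to 0.40 (estimate -0.86, adjusted p = 0.110), with an estimate of -1.34 without replicate 2 (adjusted p = 0.0402), which passed, and of -0.20 without replicate 1. In K422 they ran from -2.55 to 0.28, and the estimate of -0.51 was -0.07 without the array at -2.55. The dimmer oligonucleotide was near background in all lines but OCI-Ly3, where its mean was -0.01.

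The other STATs moved by less than the limit. STAT3 was above 0 on all 6 arrays in K422 (from 0.12 to 0.47) and in OCI-Ly3 (from 0.03 to 0.53), with estimates of 0.26 ± 0.05 (SE, adjusted p = 0.00151) and 0.29 ± 0.05 (0.000551). In HBL-1 STAT3 was 0.33, 0.24 and -0.00 with #1 and -0.07, -0.24 and -0.19 with #2, and the estimate was 0.01. The STAT3 oligonucleotide that overlaps the brightest gave means of 0.28 (K422), 0.26 (OCI-Ly3) and 0.04 (HBL-1). That at chr17:37719449-37719508 was above 0 on 4 of 6 arrays of K422, with a mean of 0.10 and of -0.12 with #2. Its means were 0.30 (OCI-Ly3) and 0.25 (HBL-1), with 5 of 6 arrays above 0 for each line. STAT6 was above 0 on all 6 arrays of HBL-1 (0.27 ± 0.05, adjusted p = 0.000311) and below 0 on 5 of 6 in K422 (-0.16 ± 0.05, adjusted p = 0.0259). STAT5A passed at the adjusted p alone in OCI-Ly3 (0.28 ± 0.08, adjusted p = 0.0149), and its second oligonucleotide, which spans 773 bases of the genome, gave 0.51 there (adjusted p = 0.00181). STAT4 was at background, and its ratios from -1.43 to 1.06 carry no change.

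**Figure D3:**
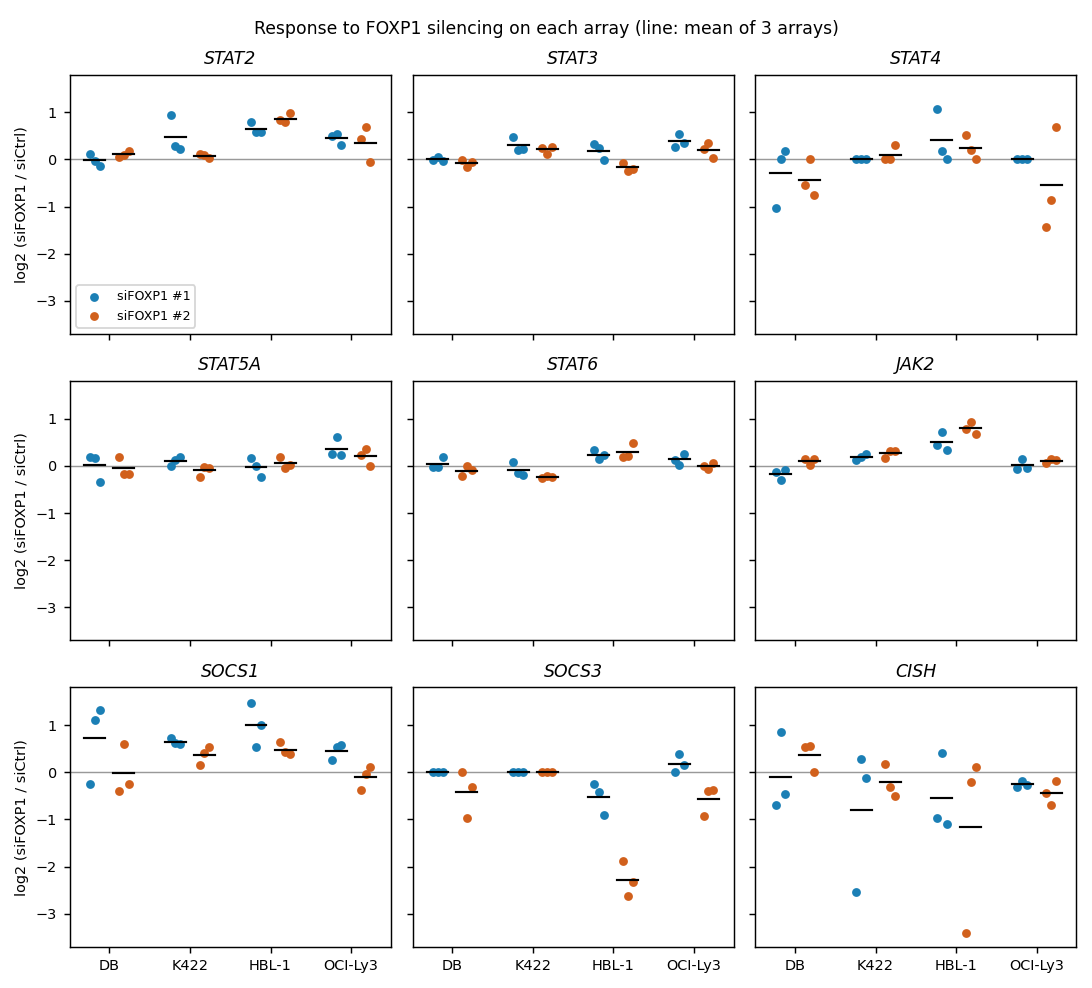
Log2(siFOXP1/siCtrl) of each gene (y axis) on each of the 24 arrays by line (x axis), with siFOXP1 #1 in blue and siFOXP1 #2 in orange and a line at the mean of 3 arrays. In HBL-1 every array of STAT2, JAK2 and SOCS1 lay above 0, and SOCS3 lay near -0.53 with #1 and -2.28 with #2.

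Fitted for each siRNA apart, 8 of 72 comparisons of the 9 genes were called, beside 4.48% of all genes over the same 8 fits. They were STAT2 (0.65 and 0.86), JAK2 (0.50 and 0.80) and SOCS3 (-0.53 and -2.28) with #1 and #2 in HBL-1, SOCS1 with #1 in HBL-1 (1.01), and SOCS3 with #2 in OCI-Ly3. The siRNAs differed for 1 of 36 comparisons, that of SOCS3 in HBL-1, where the shares of all genes called were 0.302% in DB, 0.159% in K422 and 0.192% in OCI-Ly3.

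Between the subtypes, 1 of the 9 genes passed the full criteria for a difference in the response to silencing, beside 2.26% of all genes. This was SOCS3, whose contrast of -0.69 ± 0.11 (SE, limma adjusted p = 0.000715) is no measured subtype difference, since 6 of 6 ratios in K422 and 4 of 6 in DB were set to 0 at background. Within the scan of HBL-1 and K422 the difference was -1.40, and within that of OCI-Ly3 and DB it was 0.02. On the slides with a line of each subtype it was -1.07 for HBL-1 and K422 and -0.30 for OCI-Ly3 and DB. By the dimmer oligonucleotide, at background in both GCB lines, it was -0.57 (adjusted p = 0.0654). In the deposited matrix it was -0.39, under the limit.

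The response of STAT2 to silencing, and not its level, was higher in the ABC lines by 0.42 ± 0.09 (limma adjusted p = 0.00485). In this response HBL-1 exceeded K422 by 0.47 (adjusted p = 0.0178). OCI-Ly3 exceeded DB by 0.36, which did not pass (0.147). Within the slides the difference in response was 0.68 and 0.44. STAT6 (0.26, adjusted p = 0.00225) and JAK2 (0.26, adjusted p = 0.00182) passed the p alone. For both the difference lay in HBL-1 against K422 (0.43 each), while OCI-Ly3 against DB gave 0.09 each, which did not pass. STAT3 by its brightest oligonucleotide gave 0.32 for OCI-Ly3 against DB (adjusted p = 0.0172) and -0.24 for HBL-1 against K422 (0.0371). These were opposite directions in the 2 scans. The oligonucleotide that overlaps the brightest kept this reversal, but that at chr17:37719449-37719508 did not. Its mean change was higher for the ABC line of either scan, at 0.30 against 0.02 (DB) and 0.25 against 0.10 (K422). No test of these last differences is given, so the reversal rests on 1 place in the transcript.

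**Figure D4:**
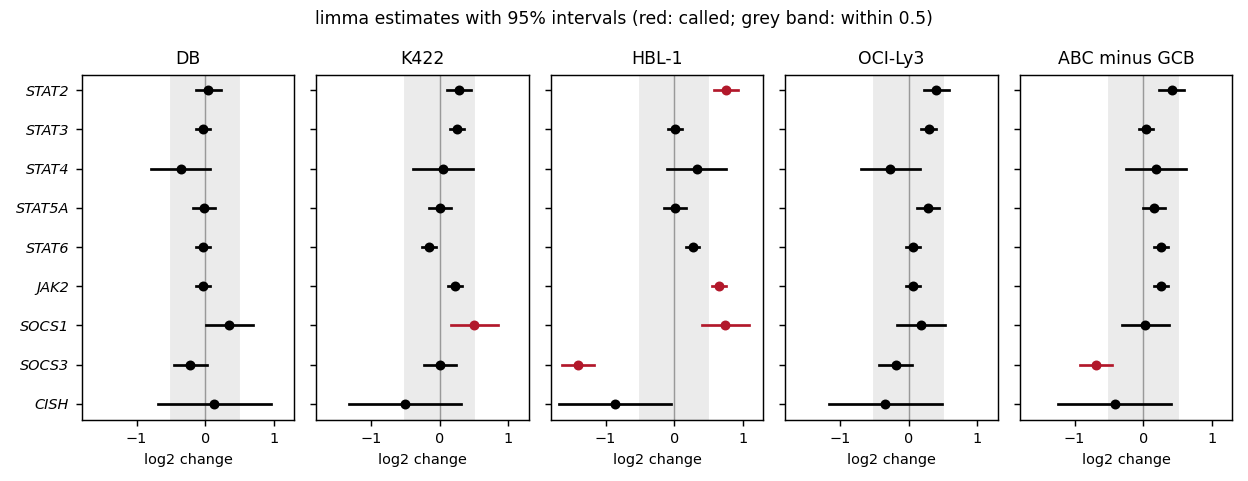
limma estimates of the log2 change (x axis) with 95% intervals for the 9 genes (y axis) in the 4 lines and for the ABC minus GCB difference, with called values in red and the range within 0.5 in grey. Red marks appear for STAT2, JAK2, SOCS1 and SOCS3 in HBL-1, for SOCS1 in K422 and for SOCS3 between subtypes.

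A further 93 genes of the pathway, all on the array, were read in the same fits. HBL-1 had 8 calls upward and 9 downward among them, OCI-Ly3 had 7 and 2, K422 had 3 and 1, and DB had 0 and 3. The shares of all genes called upward and downward were 5.73% and 4.17% (HBL-1), 2.8% and 1.62% (OCI-Ly3), 2.34% and 2.09% (K422) and 1.33% and 0.829% (DB), and nothing is read from the counts of the lists beyond these. Their median change was between 0 and 0.07 in the 4 lines. Neither STAT5B nor IRF9 was called in any line, and STAT5B was 0.47 in OCI-Ly3 and IRF9 0.36 in HBL-1. Among JAK1, JAK3 and TYK2 the only call was a rise of TYK2 in HBL-1 (0.52 ± 0.07, SE, limma adjusted p = 8.52e-06), while TYK2 was 0.38 in K422 and 0.27 in OCI-Ly3. Among the other 5 SOCS genes the only call was a fall of SOCS4 in HBL-1 (-0.52). TYK2, SOCS4, STAT5B and IRF9 are named after their values were seen.

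Cytokine receptors, 36 genes, had 4 calls upward and 2 downward in HBL-1, 1 of each in OCI-Ly3, none in K422 and 1 downward in DB, beside 5.73% and 4.17% of all genes in HBL-1. The greatest rise was that of IL13RA1, a chain of the interleukin-13 receptor, at 2.58 ± 0.37 (SE) in HBL-1, where its control channel was above background on 2 of 6 arrays. IL2RG, the common chain of the interleukin-2 family receptors, rose by 0.93 ± 0.12 in HBL-1. The 2 downward calls there were those of LEPR (-0.78) and of IL2RB, another chain of that receptor family (-0.71, limma adjusted p = 0.000198). IFNGR1, a chain of the interferon-gamma receptor, fell by 0.59 in DB.

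Among 20 cytokines HBL-1 had 1 call upward and 4 downward, and OCI-Ly3 had 4 upward and none downward, beside 2.8% and 1.62% of all genes in OCI-Ly3 and the shares given above in HBL-1. IL6 rose in both ABC lines, by 0.77 ± 0.06 (SE) in OCI-Ly3 (limma adjusted p = 1.48e-07) and by 0.61 ± 0.06 in HBL-1, and was -0.06 in DB and -0.11 in K422. IL10, a cytokine that acts through STAT3, fell in HBL-1 by 0.82 on the log2 scale (adjusted p = 5.09e-06). IL21 rose by 2.42 ± 0.29 in OCI-Ly3, where its control channel was above background on 1 of 6 arrays, and IL23A rose there by 1.05. IL15 rose by 0.68 in OCI-Ly3 and fell in both GCB lines, by 1.74 in DB (adjusted p = 6.46e-06) and by 1.42 in K422 (1.94e-05), where it was not above background on every array, and was -0.40 in HBL-1. K422 had 1 call in each direction and DB 2 downward.

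Among 15 STAT target genes HBL-1 had 1 call upward and 2 downward, OCI-Ly3 1 of each, K422 1 upward and DB none, beside 5.73% and 4.17% of all genes in HBL-1. BCL2L1, which encodes the survival protein BCL-XL, rose by 0.87 ± 0.07 (SE) in HBL-1 and 0.58 ± 0.07 in K422, and was 0.47 in OCI-Ly3 and 0.32 in DB. CCND2, a cyclin of the G1 phase, fell by 0.99 in HBL-1 and by 0.60 in OCI-Ly3 (limma adjusted p = 0.0195). Its control channel was above background on no array of K422 or DB, so its values of -0.42 and -0.21 there give no measure of change. A list of 13 genes held PIAS genes, phosphatases, SH2B adaptors and CBL. Of these 1 was called higher and 1 lower in HBL-1, 1 higher in K422 and 1 higher in OCI-Ly3, with the same shares of all genes. SH2B2, an adaptor of JAK2, rose by 0.67 in OCI-Ly3 and by 0.78 in HBL-1. PTPRC, the CD45 phosphatase that acts on JAKs, rose by 0.50 in K422. The fall in HBL-1 was that of the phosphatase gene PTPN11 (-0.52, limma adjusted p = 1.49e-05).

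For each gene that changed on silencing, the 2 most alike of 17972 genes were taken by Pearson's r of log2 ratios over the 24 arrays. The arrays share lines, siRNAs and dye orientation, and r is a description. JAK2 was most like IGJ, the immunoglobulin J chain (r = 0.905), and CYTIP (0.903), which averaged 3.33 and 2.24 in HBL-1. SOCS3 was most like DGKG (0.903) and C9orf102 (0.880), at -0.93 and -0.70 in HBL-1. These r values take in SOCS3 ratios set to 0 at background, on 6 of 6 arrays of K422 and 4 of 6 of DB. STAT2 was most like FTSJD2 (0.860) and HSH2D (0.858), and SOCS1 like MYBPC3 (0.801) and ZDHHC5 (0.777), and no mean of these 4 in a line passed 0.66.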

How the data were processed

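Each array held 45015 spots of the Agilent design used with build hg18. The authors deposited Feature Extraction output (versions 10.5.1.1 and 10.7.3.1 per the file headers), in which each spot has raw and processed intensity values for both dyes and a dye-normalized log10 ratio (control over silenced). They also deposited a log2 matrix of 41078 entries, which correlated at 0.804 to 0.998 with the scanner ratios. Here the ratio was converted to log2 of silenced over control, control and outlier spots (113 to 469 an array) were left out, spots were averaged, and the brightest oligonucleotide stood for a gene.

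The 8 means of line by siRNA were estimated in limma 3.58.1 (R 4.3.3) from all 24 arrays, with Benjamini-Hochberg adjustment over all genes, and levels were quantile-scaled (Aquantile) on average intensity. Scripts were tested on simulated data. A gene was called at an adjusted p under 0.05 and 0.5 on the log2 scale, the limit of the methods. Whether the 2 arrays of a replicate number share control RNA is not given in the sources used here. The p-values of the ratio fit rest on the spread between cultures with the same siRNA within a line, pooled over lines and siRNAs. A difference between the siRNAs of a line does not enter that spread. The p-values of the levels rest on the spread between replicates within a line, pooled over the lines. Precision is limited by the number of arrays. A filter on dim genes (above background in a channel on 12 arrays) keeps 8 of the 9 genes and drops STAT4.

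Genes, lists and tests were chosen with earlier results of these data known. Named genes are the 9 members, FOXP1, up to 5 called pathway genes a line with the greatest change that were above background in either channel on all 6 arrays, and the 2 genes most alike to each changed member. Other list genes named in the text (TYK2, SOCS4, STAT5B, IRF9, JAK1, JAK3, PTPN11, LEPR, IL2RB, and named genes in further lines) fall outside this rule. The methods describe independent experiments, so replicate numbers were taken as pairing arrays. This pairing was used in averaging the control levels and in the replicate block, an alternative. The main fit of the ratios had no block and counted the 2 arrays of a pair as independent. The correlation of deviations of such pairs was 0.0468 to 0.284 over all genes and 0.114 to 0.573 over 16457 bright genes. The consensus correlation of the replicate block was 0.249. Alternatives were other background corrections, the matrix, filters, oligonucleotides, priors, replicate and slide blocks, lines fitted alone, the methods' t-test, other scalings of the level, and leaving out each replicate. Some items are not reported here.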

Additional observations from a re-analysis of the deposited data

Results flagged for a closer look

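Of 35 groups of 6 arrays (1 gene in 1 line) with any spread, 5 held an array far from the others. The cut gives about 5% for 6 draws from 1 normal distribution. These groups mix 2 siRNAs, and some hold ratios of 0 at background. Of the 5 groups, 3 were flagged for the same array, so no excess over chance is read from the count. In K422 the array of siFOXP1 #1 replicate 1 was the one for 3 genes: STAT2 at 0.95 against at most 0.29 on the others, STAT6 at 0.084 against at most -0.16, and CISH at -2.55 against at least -0.51. The plain means of the other 5 K422 arrays were 0.15 for STAT2, -0.21 for STAT6 and -0.10 for CISH. STAT4 at 0.31 on siFOXP1 #2 replicate 3 of K422 stood apart from 5 ratios of 0 at background. SOCS3 at -0.97 on siFOXP1 #2 replicate 2 of DB stood apart from a next lowest of -0.32, with a control channel above background on 2 of 6 arrays.

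For SOCS3 the contrast of ABC and GCB lines (-0.69) and that of HBL-1 and K422 (-1.40) passed the limma test (adjusted p = 0.000715 and 1.59e-05), both against ratios set to 0 at background, on 6 of 6 arrays in K422 and 4 of 6 in DB. OCI-Ly3 minus DB was 0.02.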

How the results depend on the processing

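The 9 genes had 5 calls on silencing over the 4 lines, 8 for single siRNAs, 1 between siRNAs, 1 between subtypes and 37 between control levels. With normexp and loess the 5 became 2, the 4 in HBL-1 became 1 and the 8 became 5. With normexp and median centring the 5 became 1, the 4 in HBL-1 became 1, and those in K422 and between siRNAs became 0. These corrections changed the size of STAT2, JAK2 and SOCS1 in HBL-1 and not their direction, and the cause was not tested. STAT6 in HBL-1, under the limit in the main fit, went from 0.27 to -0.05 with median centring. The deposited matrix gave 1 call in DB (SOCS3, -0.54) and 0 between subtypes. The replicate block and the slide block each left 0 in K422, where SOCS1 was lost, and the replicate block changed no other call of the 9 genes on silencing. The mean over oligonucleotides gave 0 between siRNAs. Leaving out each replicate gave 0 to 1 calls in DB, K422 and OCI-Ly3. Without replicate 1 of DB SOCS1 passed there, and without replicate 3 of OCI-Ly3 STAT2 passed there. By the methods' t-test, whose spread takes in the difference between the siRNAs, the adjusted p of SOCS3 in HBL-1 was 0.0560. Over all alternatives the count of level calls ran from 32 to 39.

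The next 2 alternatives were chosen after seeing the data. The second-brightest oligonucleotide gave 1 call in OCI-Ly3 (STAT5A), 0 between siRNAs and 0 between subtypes. It reversed SOCS3 with siFOXP1 #2 in OCI-Ly3 (0.15, limma adjusted p = 0.900) and the level of CISH in OCI-Ly3 against K422 (1.02, adjusted p = 0.00814). Without the array of siFOXP1 #1 replicate 1, K422 had 0 calls. Genes near background, STAT4 in all lines and SOCS3 in K422, give no measure of change.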
